A study of Bos taurus with 6 samples.

Results

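The genes described here are 9 that carry out or feed steroid synthesis in the Leydig cell: STAR, CYP11A1, CYP17A1, HSD3B1, HSD17B3, CYP19A1, SRD5A1, FDX1 and FDXR. They were taken from the table of gene levels by symbol, and every entry of a symbol was kept, so that CYP17A1 has 3 entries and the 9 genes have 11 of the 47249 entries. The levels were measured by RNA sequencing of whole testis after removal of ribosomal RNA, in 3 calves aged 3 months (immature) and 3 bulls aged 3 years (mature), all untreated Wandong cattle (Bos taurus). Each library came from 1 animal, and the libraries are called calf 1 to calf 3 and bull 1 to bull 3. Levels are given as FPKM (fragments per kilobase of transcript, scaled by the mapped fragments of the library), which corrects for transcript length and can therefore be compared between genes. With 3 animals a group, p-values measure the spread between these animals.

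Leydig cells lie between the seminiferous tubules and make testosterone when luteinizing hormone from the pituitary binds its receptor. STAR brings cholesterol to the inner mitochondrial membrane, where CYP11A1 cuts its side chain with electrons passed on by FDXR and FDX1. HSD3B1, CYP17A1 and HSD17B3 then turn pregnenolone into testosterone, which SRD5A1 converts to dihydrotestosterone and CYP19A1 to oestradiol.

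The library labelled calf 3 stood apart from calf 1 and calf 2. INSL3, a peptide hormone made by Leydig cells, stood at 1349 and 1041 FPKM in calf 1 and calf 2 and at 0.121 in calf 3, and the transcription factor NR5A1 was listed at 0 in calf 3. The summed level of 3 astrocyte markers (GFAP, AQP4, GJA1) was 1525 FPKM in calf 3 against 20.1 to 37.9 in the other 5 libraries, and that of 3 neuron markers was 458 against 2.49 to 7.03. Of the 7 Sertoli cell markers, AMH, WT1, INHA, FSHR and DHH were at 0 to 0.766 FPKM in calf 3, while CLU (423) and SOX9 (13.7) exceeded every bull. The Leydig cell markers and most of the Sertoli cell markers were thus near 0 in this library. Which cells the CLU and SOX9 of calf 3 came from was not tested. The comparisons of the 9 genes are given with and without calf 3, while those of other genes name the libraries used. The number of genes listed above 0 was 27164 in calf 3, 31697 and 32151 in the other calves and 38251 to 38975 in the bulls. In whole tissue, fewer cells of a type and less RNA per cell cannot be told apart.

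The cell types of the tissue also differed between the ages. The summed level of 6 germ cell markers was 18.2 and 25.5 FPKM in calf 1 and calf 2 and 12272 to 13890 in the bulls. For 7 Sertoli cell markers it was 2670 to 2804 in calf 1 and calf 2 and 376 to 393 in the bulls. The 3 Leydig cell markers (INSL3, LHCGR, NR5A1) summed to 1072 and 1381 FPKM in these calves and to 1416 to 2289 in the bulls, nearly all of it INSL3. Within that list NR5A1 was lower in the bulls than in these calves and LHCGR overlapped. The part of these differences in the results below was not tested.

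Of the 11 entries, 3 were called higher in bulls over all libraries: HSD17B3, CYP19A1 and FDX1. A call needed a fold change of at least 2 and an adjusted p below 0.05 in limma on log2(FPKM + 1), with adjustment over the 18115 genes tested, and 35.7% of those were called higher. None of the 11 was called lower by limma, against 9.61% of all genes, and 0 were lower at an unadjusted p below 0.05. The lowest bull lay above the highest calf in 4 entries (STAR besides the 3 called), against 46.1% of all genes. All 11 entries passed the filter on low values, CYP19A1 only through the bulls.

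Without calf 3, SRD5A1 joined the genes called higher and FDXR was called lower. That made 4 of 11 higher and 1 of 11 lower, against 37.9% and 13.6% of all genes. All bulls lay above both calves in 5 entries (53.5% of all genes) and below both in 1, FDXR (30.9% of all genes). The median log2 fold change of the 11 entries was 1.36 with calf 3 and 1.02 without it, beside 0.43 in both fits over all genes. Without calf 3 and bull 3, a fit given below, the median of the entries was -0.0035, again beside 0.43 over all genes. The excess of their median over that of all genes was thus absent once bull 3 was left out as well.

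**Figure D1:**
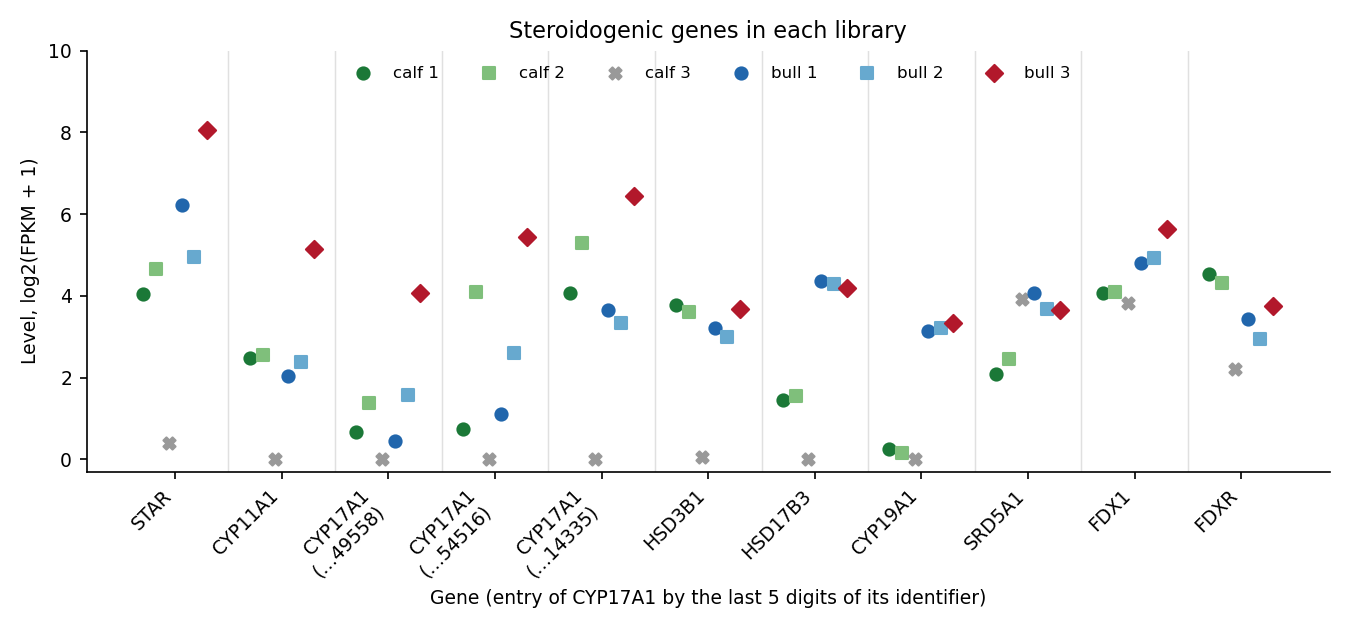
Level of each of the 11 entries in each library, as log2(FPKM + 1) on the vertical axis, with green symbols for calf 1 and calf 2, a grey cross for calf 3, and blue and red symbols for the bulls. HSD17B3 and CYP19A1 show 3 close bulls well above the calves, while in STAR, CYP11A1 and the CYP17A1 entries bull 3 lies far above bull 1 and bull 2.

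STAR (ENSBTAG00000033345, chromosome 27, 33312972 to 33320397), which delivers cholesterol to the mitochondrion, was the most abundant of the 9 in bulls. It stood at 15.6, 24.2 and 0.328 FPKM in calf 1, calf 2 and calf 3 and at 73.7, 30.05 and 266 FPKM in bull 1, bull 2 and bull 3. All bulls lay above all calves, but bull 2 was close to calf 2 and bull 3 was 5.12-fold above the mean of the other bulls. The log2 fold change was 3.37 (SE 1.32, n = 3 and 3) with a limma adjusted p of 0.0728, and it was 2.06 (SE 0.84, adjusted p = 0.0642) without calf 3. STAR was thus not called, and the bulls' mean of 123 ± 125 FPKM (SD, n = 3) rested mostly on bull 3. Without both calf 3 and bull 3 the log2 fold change was 1.23 with a 95% interval from -0.00087 to 2.47.

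CYP11A1 (ENSBTAG00000006934, chromosome 21, 34328403 to 34342900), the enzyme that starts steroid synthesis by making pregnenolone, overlapped between the ages. Its level was 4.58 and 4.88 FPKM in calf 1 and calf 2, and it was listed at 0 in calf 3. In the bulls it was 3.09, 4.24 and 34.7 FPKM. Bull 1 and bull 2 lay slightly below calf 1 and calf 2, and bull 3 lay 9.47-fold above the mean of those bulls. Its log2 fold change was 1.52 over all libraries (limma adjusted p = 0.273), 0.68 without calf 3 (95% interval -1.545 to 2.90, adjusted p = 0.522) and -0.31 without calf 3 and bull 3 (adjusted p = 0.191). The sign of the difference thus turned when bull 3 was left out as well.

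At the gene level, the redox chain that serves CYP11A1 split once calf 3 was left out. The main Ensembl transcript of FDX1 was not called with or without calf 3, as given below. FDX1 (ENSBTAG00000011793, chromosome 15, 20411780 to 20494938), the small iron-sulphur protein that hands electrons to the enzyme, was at 15.8, 16.2 and 13.3 FPKM in the calves and 26.8, 29.6 and 48.5 FPKM in the bulls. Every bull was above every calf, calf 3 included, which had close to the level of the other calves. FDX1 rose by 1.12 on the log2 scale (SE 0.25, limma adjusted p = 0.0110), and by 1.03 (adjusted p = 0.00990) without calf 3. Without bull 3 the difference was 0.86 and without both it was 0.78, under the fold needed for a call.

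FDXR (ENSBTAG00000006525, chromosome 19, 56542648 to 56554189), the reductase that loads FDX1 with electrons, went the other way. Its level was 22.2 and 18.9 FPKM in calf 1 and calf 2, 3.61 in calf 3, and 9.77, 6.76 and 12.5 in the bulls. All bulls lay below calf 1 and calf 2 and above calf 3. With all libraries the log2 fold change was -0.30 (limma adjusted p = 0.716), and without calf 3 FDXR fell by 1.04 on the log2 scale (SE 0.24, adjusted p = 0.00809). Without both calf 3 and bull 3 it fell by 1.23 (adjusted p = 0.00487).

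CYP17A1, the enzyme that makes the androgen precursor dehydroepiandrosterone, has 3 neighbouring entries on chromosome 26. They are ENSBTAG00000049558 (23411942 to 23419174), ENSBTAG00000054516 (23431709 to 23438006) and ENSBTAG00000014335 (23450403 to 23456668). The RefSeq annotation of ARS-UCD2.0 gives this symbol to a single gene. How the authors' counting shared reads among the entries is not given in the sources used here, so the level of each is uncertain and their sum is given as well.

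The entry ENSBTAG00000014335 carried most of the CYP17A1 level. It was at 15.9 and 38.2 FPKM in calf 1 and calf 2, and at 11.5, 9.13 and 86.4 FPKM in the bulls. The entry ENSBTAG00000054516 was at 0.672 and 16.2 FPKM in these calves and at 1.16, 5.07 and 42.6 FPKM in the bulls, so calf 2 stood 24.1-fold above calf 1. The entry ENSBTAG00000049558 was lowest, with 0.603 and 1.58 FPKM in the calves and 0.373, 2.001 and 15.9 FPKM in the bulls. All 3 were listed at 0 in calf 3, and in all 3 the bulls overlapped calf 1 and calf 2, with bull 3 above both.

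The sum over the 3 entries was 17.2 and 56.0 FPKM in calf 1 and calf 2 and 13.1, 16.2 and 145 FPKM in the bulls. Bull 1 and bull 2 thus lay below both calves, and bull 3 lay 9.90-fold above the mean of those bulls. The log2 fold change of the sum was 1.70 (SE 1.68, limma adjusted p = 0.425), and it was 0.03 (95% interval -2.61 to 2.66, adjusted p = 0.983) without calf 3. The share held by ENSBTAG00000014335 was 92.6% and 68.3% in the calves and 88.2%, 56.4% and 59.6% in the bulls. It was highest in calf 1 and bull 1, so the shares did not follow age. The single entries were not called in either fit. Their log2 fold changes without calf 3 were 1.02 (adjusted p = 0.386), 0.63 (adjusted p = 0.711) and -0.21 (adjusted p = 0.855) in the order of their positions. With all libraries they ranged from 1.36 to 1.44 (adjusted p from 0.264 to 0.488).

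HSD3B1 (ENSBTAG00000006769, chromosome 3, 23706733 to 23717051), which turns pregnenolone into progesterone, was not called in any of the fits. It was at 12.7 and 11.1 FPKM in calf 1 and calf 2, 0.0352 in calf 3, and 8.23, 6.94 and 11.8 FPKM in the bulls. Bull 3 fell between the calves, and bull 1 and bull 2 below them. Its log2 fold change was 0.82 (limma adjusted p = 0.526) with all libraries and -0.40 (95% interval -0.94 to 0.14, adjusted p = 0.147) without calf 3. Without calf 3 and bull 3 it was -0.59 with an adjusted p of 0.0211, under the fold needed for a call. The transcript ENSBTAT00000087114 held most of the level, from 9.23 to 11.9 FPKM in calf 1 and calf 2 and from 6.56 to 11.5 in the bulls.

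HSD17B3 (ENSBTAG00000016867, chromosome 8, 82961057 to 83014357), which reduces androstenedione to testosterone, had the clearest change among the androgen enzymes. It was at 1.74 and 1.93 FPKM in calf 1 and calf 2, was listed at 0 in calf 3, and was at 19.5, 18.6 and 17.3 FPKM in the bulls. The groups were far apart and bull 3 was the lowest of the bulls. The bulls' mean of 18.5 ± 1.08 FPKM (SD, n = 3) was 10.1-fold that of calf 1 and calf 2. On the log2 scale HSD17B3 rose by 3.28 (SE 0.44, limma adjusted p = 0.00118), and by 2.78 (SE 0.12, adjusted p = 7.9e-06) without calf 3.

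CYP19A1 (ENSBTAG00000014890, chromosome 10, 59026096 to 59294738), the aromatase gene, was near 0 in the calves and present in every bull. Its level was 0.185, 0.114 and 0.00864 FPKM in the calves and 7.76, 8.32 and 9.15 FPKM in the bulls, 8.41 ± 0.704 (SD, n = 3). The bulls lay close together and far above every calf. CYP19A1 rose by 3.09 on the log2 scale (SE 0.15, limma adjusted p = 2.4e-05), and by 3.03 (adjusted p = 1e-05) without calf 3.

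The transcripts behind the CYP19A1 level were mostly not the annotated aromatase messenger. The only Ensembl transcript, ENSBTAT00000019823 (59102240 to 59156607), was at 0.0531, 0.0129 and 0 FPKM in the calves and 0.127, 0.0783 and 0.200 FPKM in the bulls. That was 1.64%, 0.942% and 2.18% of the gene's FPKM in the 3 bulls, and the transcript was too low to be tested. The other 13 of the 14 transcripts were assembled from the reads by the authors.

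Of these, 4 are named as antisense (CYP19A1-AS1 to CYP19A1-AS4, TCONS_00033322 and TCONS_00033347 to TCONS_00033349). Together they held 6.40, 6.57 and 6.33 FPKM in the bulls, or 82.5%, 79.0% and 69.1% of the gene, against 0.00499 to 0.117 FPKM in the calves. CYP19A1-AS3 (59144514 to 59290584) rose by 2.26 on the log2 scale (limma adjusted p = 7.9e-05) and CYP19A1-AS4 (59146158 to 59290584) by 1.51 (adjusted p = 9.7e-05). Without calf 3 the values were 2.23 and 1.504 (adjusted p = 0.000224 and 0.000391). Both were below 1 FPKM in every calf and passed the filter only through the bulls. The kit kept strand, but the strand setting of the authors' counting is not given in the sources used here. The gene-level call of CYP19A1 was therefore a call on the sum over the locus, most of which carried antisense names.

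**Figure D2:**
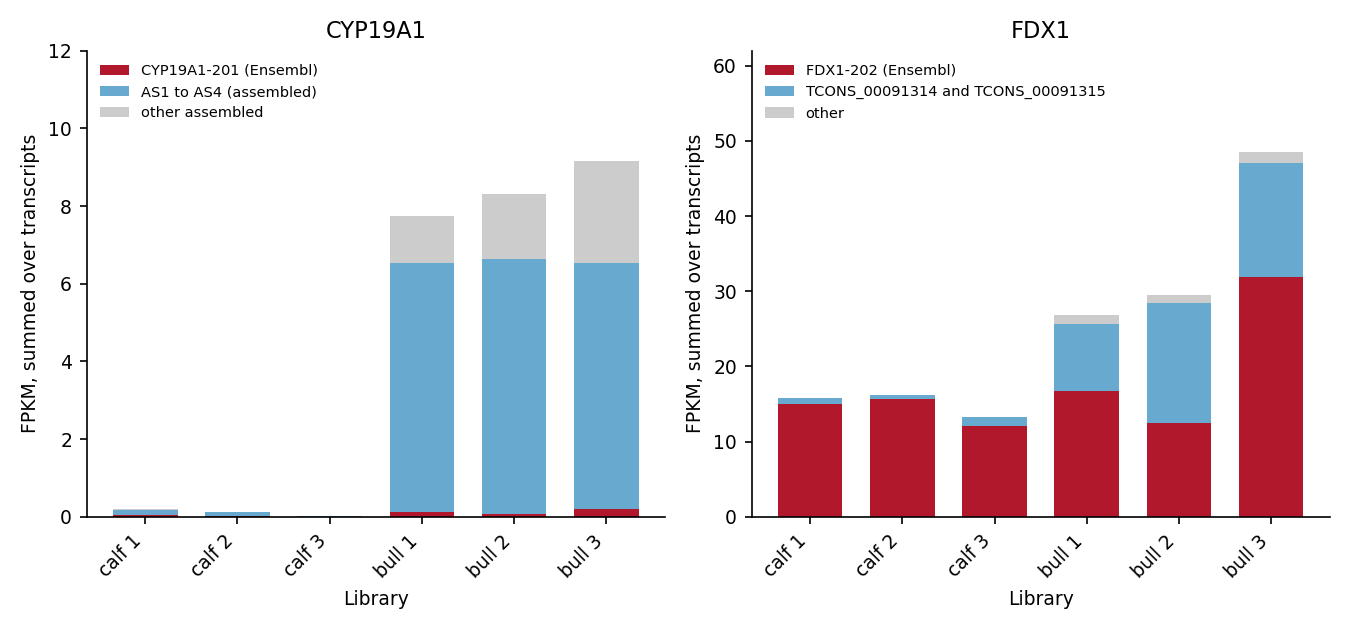
FPKM of the transcripts of CYP19A1 (left) and FDX1 (right), stacked for each library, with the main Ensembl transcript in red, the named assembled transcripts in blue and the others in grey. In the bulls the red part of CYP19A1 is at most 0.200 FPKM, and the blue part of FDX1 is larger than in any calf.

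FDX1 showed a similar feature to a lesser extent. The Ensembl transcript ENSBTAT00000015660 was at 15.0, 15.6 and 12.1 FPKM in the calves and 16.7, 12.4 and 31.9 FPKM in the bulls. Bull 2 lay among the calves, and the log2 fold change was 0.39 (limma adjusted p = 0.392), or 0.28 (adjusted p = 0.542) without calf 3. The assembled transcript TCONS_00091315 was at 0, 0.108 and 0 FPKM in the calves and at 4.70, 10.95 and 9.45 FPKM in the bulls, a log2 fold change of 3.11 (limma adjusted p = 0.000394), and it passed the filter only through the bulls. A further assembled one, TCONS_00091314, rose by 1.73 (adjusted p = 0.00103). Without calf 3 these values were 3.08 and 1.87 (adjusted p = 0.000939 and 0.000558). The share of Ensembl transcripts in the FDX1 level was 91.1% to 96.0% in the calves and 42.8% to 66.2% in the bulls. Over all 9 genes, 14 of 33 transcripts passed the filter and 5 of them were called higher, beside 34.8% of all transcripts tested. Of these 5, 3 passed the filter only through the bulls. Without calf 3, 6 were called higher and 1 lower, beside 36.1% and 13.1% of all transcripts.

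SRD5A1 (ENSBTAG00000015478, chromosome 20, 66561436 to 66598483), which makes dihydrotestosterone, was at 3.24 and 4.47 FPKM in calf 1 and calf 2 and at 15.7, 11.7 and 11.5 FPKM in the bulls. Calf 3 had 14.1 FPKM, within the range of the bulls, so the groups overlapped with it and not without it. The log2 fold change was 0.97 (SE 0.49, limma adjusted p = 0.140) over all libraries. Without calf 3, SRD5A1 rose by 1.52 (SE 0.19, adjusted p = 0.000578), a mean 3.36-fold higher in bulls.

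**Figure D3:**
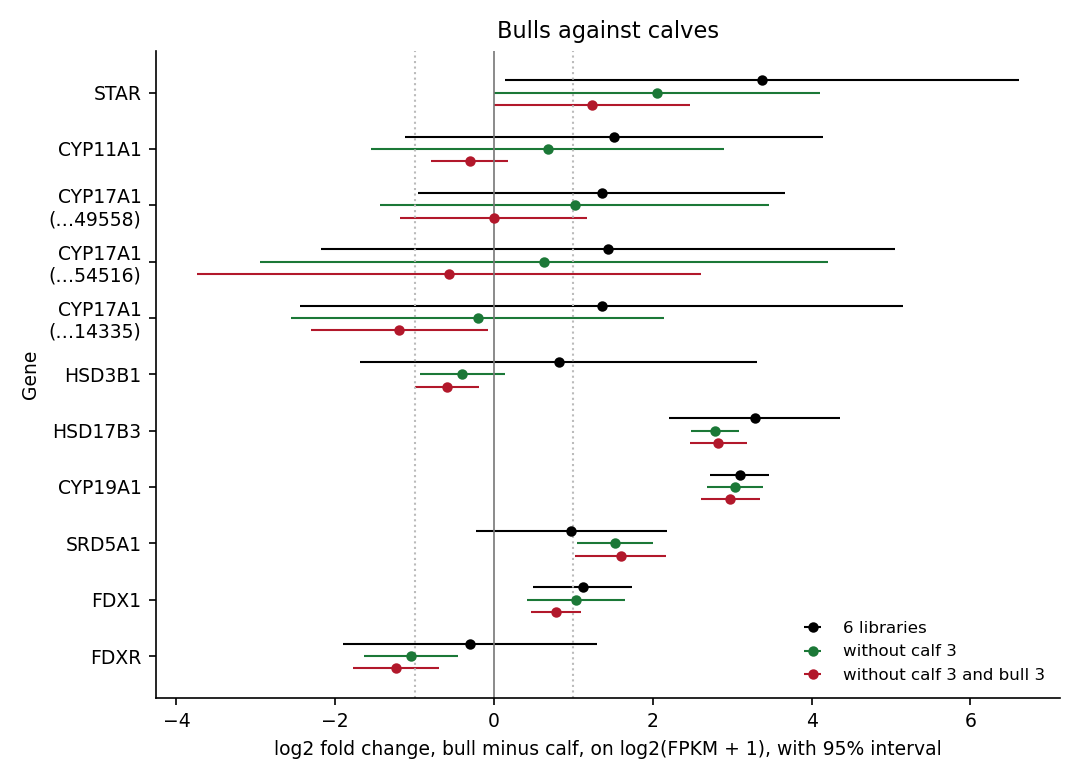
Log2 fold change of each entry, bulls minus calves, on log2(FPKM + 1), with 95% intervals, in the fit of all libraries (black), without calf 3 (green) and without calf 3 and bull 3 (red), with dotted lines at a fold change of 2 in either direction. HSD17B3 and CYP19A1 lie right of the dotted line in all fits, while CYP11A1 and the CYP17A1 entries move left as the libraries are left out.

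With both calf 3 and bull 3 left out, which leaves 2 animals a group, 3 of the 11 entries were called higher (HSD17B3, CYP19A1 and SRD5A1) and 1 lower (FDXR), against 37.4% and 13.9% of all genes. HSD17B3 changed by 2.82 (limma adjusted p = 0.000127) and CYP19A1 by 2.97 (adjusted p = 0.000123) in that fit. Of the CYP17A1 entries, ENSBTAG00000014335 had a log2 fold change of -1.19 (adjusted p = 0.0555) and was not called.

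The spread between bulls was uneven over the 9 genes. Bull 3 was the highest bull in 9 of the 11 entries, all but HSD17B3 and SRD5A1. In 5 entries (STAR, CYP11A1 and the CYP17A1 entries) it lay more than 1 on the log2(FPKM + 1) scale above the mean of bull 1 and bull 2, which is 45.5% of the entries, and 1.74% of the 18115 genes tested did so. The CYP17A1 entries bear the same symbol and may share reads, so this share counts entries that are not independent of each other. The SD of log2(FPKM + 1) between bulls stood at percentile 99.7 for STAR, 99.8 for CYP11A1 and 99.8 to 99.9 for the CYP17A1 entries among all genes. For HSD17B3 it stood at percentile 20.1, for CYP19A1 at 31.7 and for SRD5A1 at 70.7. By the size of bull 3's excess, the CYP17A1 entry ENSBTAG00000054516 ranked 3 among all genes tested and CYP11A1 ranked 12.

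Other genes of the pathway shared this excess of bull 3 in part. Of 38 listed pathway genes tested, 5 (13.2%) lay more than 1 above the mean of the other bulls, among them LHCGR, SCARB1, CYB5R3 and HSD17B7. LHCGR, the receptor of luteinizing hormone, was at 8.02, 4.29 and 18.9 FPKM in the bulls, and SCARB1, which takes up cholesterol from lipoproteins, at 12.6, 5.50 and 32.9. Of the 3 Leydig cell markers, LHCGR thus stood out in bull 3. The other ones, INSL3 (2056, 1403 and 2262 FPKM) and NR5A1 (10.2, 8.13 and 8.42 FPKM), did not. Markers of the adrenal cortex (CYP21A2, CYP11B1, MC2R) summed to 0.138 to 0.194 FPKM in the bulls. A single animal carried this pattern, so it has no replicate.

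**Figure D4:**
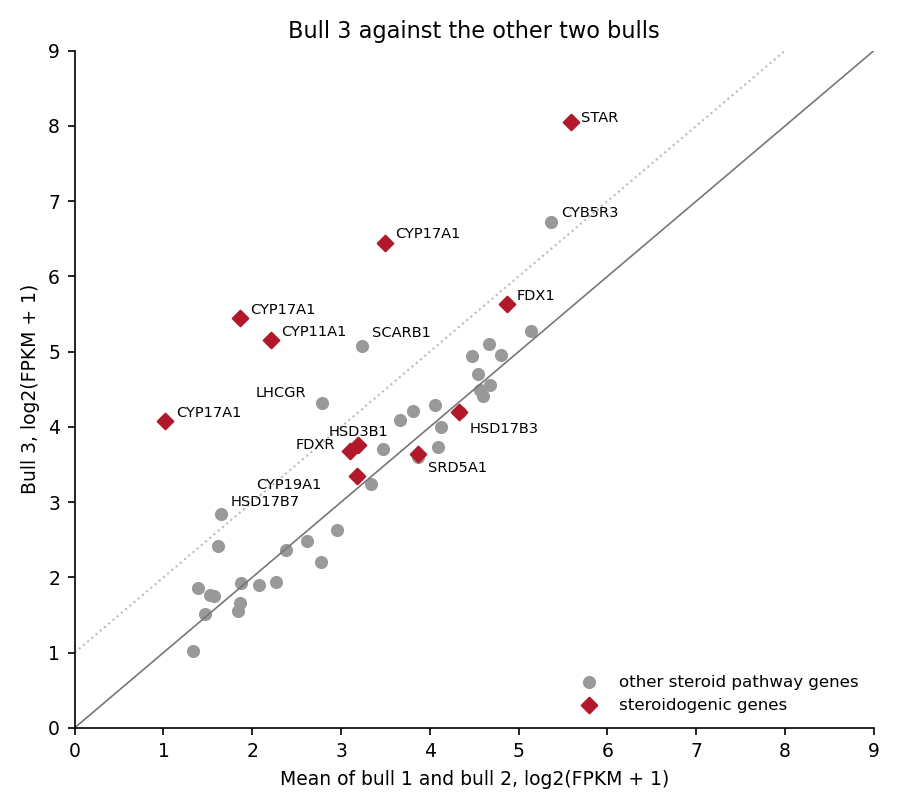
Level in bull 3 against the mean of bull 1 and bull 2, both as log2(FPKM + 1), for the 11 entries of the 9 genes (red diamonds) and other pathway genes tested (grey circles), with a solid line of equal levels and a dotted line 1 above it. STAR, CYP11A1 and the 3 CYP17A1 entries lie above the dotted line and HSD17B3 and SRD5A1 just below the solid one.

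Calf 1 and calf 2 also differed in CYP17A1. Calf 2 exceeded calf 1 by 3.36 on the log2(FPKM + 1) scale in ENSBTAG00000054516 and by 1.22 in ENSBTAG00000014335, while 1.09% of all genes differed by more than 1 in that direction. CYP11A1 and FDX1 differed by 0.07 and 0.04 between them.

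Each gene was also set against CYP11A1 within the same library, as a difference of log2(FPKM + 1). CYP11A1 was listed at 0 in calf 3, so the difference there is only the level of the other gene. The tests over 20 labelings count that library as a calf. STAR exceeded CYP11A1 by 1.57 and 2.102 in calf 1 and calf 2, by 0.41 in calf 3, and by 4.19, 2.57 and 2.90 in the bulls. The bulls lay above all calves, with a difference of the means of 1.86, and the exact two-sided permutation test gave p = 0.1, the smallest that 20 labelings allow (0.5 after adjustment over 10 ratios). FDXR minus CYP11A1 was 2.06, 1.76 and 2.20 in the calves and 1.40, 0.57 and -1.40 in the bulls, lowest in bull 3. The difference of the means was -1.82 with the same p of 0.1 in the exact permutation test, and -1.02 without bull 3. HSD17B3 minus CYP11A1 gave differences of -1.02 and -1.004 in calf 1 and calf 2, and of 2.32, 1.91 and -0.96 in the bulls. Bull 3, with its high CYP11A1, thus resembled the calves in this ratio. For the CYP17A1 entry ENSBTAG00000014335 the differences were 1.60 and 2.74 in these calves and 1.62, 0.95 and 1.29 in the bulls, so bull 3 did not stand apart once CYP11A1 was taken as the base. Without calf 3 no ratio could fall below p = 0.2 in this exact test of 10 labelings, and STAR, HSD17B3, CYP19A1 and FDXR reached that value.

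The order of the levels changed between the ages. In calf 1 and calf 2 the means ran from CYP17A1 (36.6 FPKM, sum of its entries) through FDXR (20.5), STAR (19.9) and FDX1 (16.0) to HSD3B1 (11.9). CYP11A1 (4.73), SRD5A1 (3.86), HSD17B3 (1.84) and CYP19A1 (0.150) followed. Neighbours overlapped among the highest 4 and not below them. In the bulls STAR (123) and CYP17A1 (58.1) led, followed by FDX1 (34.9) and then by HSD17B3 (18.5), CYP11A1 (14.0), SRD5A1 (13.0), FDXR (9.69), HSD3B1 (9.01) and CYP19A1 (8.41). There, FDX1 and HSD17B3 were the only neighbours whose ranges did not overlap. The order of these means rested on bull 3. In bull 1 and bull 2, CYP17A1 lay below FDX1 and HSD17B3, and CYP11A1 was the lowest of the 9. CYP19A1 is ranked here by the sum over its locus. Its only Ensembl transcript was at 0.127, 0.0783 and 0.200 FPKM in bull 1, bull 2 and bull 3.

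Of 56 further genes of steroid synthesis and action, 54 were found and 38 passed the filter. Over all libraries 3 were called higher and 5 lower in bulls, beside 35.7% and 9.61% of all genes tested, with a median log2 fold change of -0.13 against 0.43. Without calf 3 it was 5 higher and 10 lower, beside 37.9% and 13.6%, with a median of -0.48.

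In the group of signal and transcription (7 genes), NR5A2, a nuclear receptor, rose by 1.38 (limma adjusted p = 0.00913) over all libraries and by 1.07 (adjusted p = 0.00153) without calf 3. It was below 1 FPKM in every calf and passed the filter only through the bulls. NR5A1, the main activator of steroidogenic genes, was at 25.1 and 27.6 FPKM in calf 1 and calf 2 and at 8.13 to 10.2 in the bulls. Without calf 3 it fell by 1.47 (adjusted p = 0.000146), GATA4 fell by 1.98 (adjusted p = 0.000111) and GATA6, its relative, by 2.38 (adjusted p = 4.2e-05). These factors are also known from Sertoli cells, whose markers were lower in the bulls, and the part of that in their values was not tested. LHCGR, at 6.42 and 4.02 FPKM in calf 1 and calf 2, had a log2 fold change of 0.69 without calf 3 (adjusted p = 0.285).

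In cholesterol delivery and storage (11 genes), 1 was called higher and 3 lower over all libraries, beside the same 35.7% and 9.61% of all genes. LIPE, which frees cholesterol from its esters, was at 0.366, 0.524 and 9.69 FPKM in the calves and 26.4 to 29.9 in the bulls. It rose by 3.36 (limma adjusted p = 0.0134), and by 4.32 (adjusted p = 1.8e-06) without calf 3. NPC2, which carries cholesterol out of the lysosome, fell by 1.78 (adjusted p = 0.0234) and VDAC1, a channel of the outer mitochondrial membrane, fell by 1.498 (adjusted p = 0.00604). Without calf 3 their log2 fold changes were -2.36 and -1.19 (adjusted p = 5.1e-06 and 0.000287). NPC1, the partner of NPC2, rose by 1.33 without calf 3 (adjusted p = 0.000178) and was not called over all libraries. SCARB1 had log2 fold changes of 0.02 and -0.46 with and without calf 3 (adjusted p = 0.987 and 0.549).

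Among the 6 redox partners and cofactors limma called none over all libraries, beside 35.7% of all genes called higher and 9.61% called lower. In that fit 2 (CYB5A, POR) had an unadjusted p below 0.05. Without calf 3, 1 was called higher (CYB5A) and 1 lower (PAPSS2), beside 37.9% and 13.6% of all genes. CYB5A, which favours androgen formation by CYP17A1, was at 11.5 and 21.6 FPKM in calf 1 and calf 2 and at 31.5, 37.2 and 37.9 in the bulls. It rose by 1.11 without calf 3 (limma adjusted p = 0.00750), and all bulls were above both calves. PAPSS2, which makes the sulphate donor, fell by 2.21 without calf 3 (adjusted p = 0.000161). POR, which feeds electrons to CYP17A1 and CYP19A1, was at 22.7 and 20.2 against 9.81 to 12.1 FPKM, a log2 fold change of -0.93 without calf 3 (adjusted p = 0.000925), just under the fold needed.

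Among the other steroid enzymes 12 of 25 were tested. HSD17B1, which reduces oestrone to oestradiol, was at 0.654, 0.759 and 0.951 FPKM in the calves and 21.6, 27.4 and 33.5 in the bulls. It rose by 3.98 (SE 0.21, limma adjusted p = 3.2e-05), and by 4.04 (adjusted p = 1.1e-05) without calf 3, and it passed the filter only through the bulls. HSD17B10, a mitochondrial dehydrogenase, fell by 1.19 (adjusted p = 0.00677), and its log2 fold change was -1.36 (adjusted p = 0.000993) without calf 3. AKR1C4 (-1.81, adjusted p = 0.00952) and HSD3B7, an enzyme of bile acid synthesis (-1.505, adjusted p = 0.000255), were called lower without calf 3 and not over all libraries. HSD17B12, an enzyme of fatty acid elongation, was lower by less than the fold needed (-0.89, adjusted p = 0.0464, and -0.63, adjusted p = 0.0343, without calf 3). SRD5A2, the second steroid 5-alpha-reductase, stayed at or below 0.0485 FPKM in the calves and was listed at 0 in the bulls. SRD5A3, another gene of the family, was at 4.96 and 6.54 FPKM in calf 1 and calf 2 and 5.19 to 6.88 in the bulls and was not called. HSD11B1 was at 0.427 to 2.05 FPKM over all libraries and was not tested.

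Of the steroid receptors, NR3C1, the glucocorticoid receptor, fell by 1.32 (limma adjusted p = 0.00507), and its log2 fold change was -1.07 (adjusted p = 0.000426) without calf 3. ESR1, an oestrogen receptor, was at 1.56 and 2.06 FPKM in calf 1 and calf 2 and 0.282 to 0.671 in the bulls, and did not pass the filter.

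**Figure D5:**
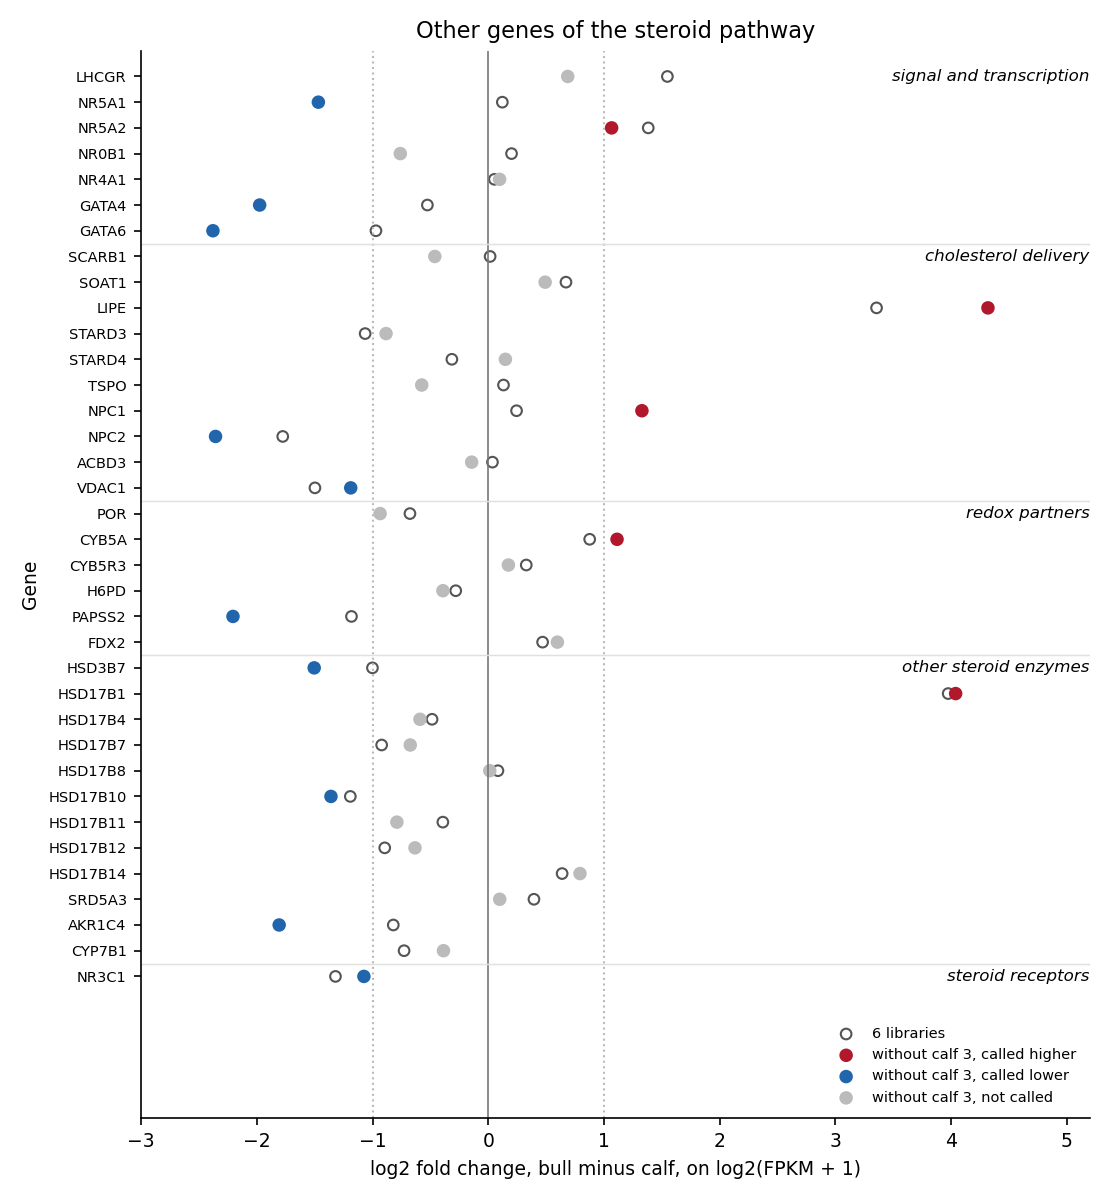
Log2 fold change, bulls minus calves, on log2(FPKM + 1), of other pathway genes tested, by group, with open circles for all libraries and filled circles without calf 3 (red called higher, blue called lower, grey not called). HSD17B1 and LIPE lie farthest right and GATA6 and NPC2 farthest left among the filled circles.

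The scale of the libraries matters for the direction of small changes. As deposited, 78.8% of the genes called over all libraries were higher in bulls, with a median log2 fold change of 0.43, and after quantile normalization 45.8% were, with a median of -0.26. HSD17B3 (2.61) and CYP19A1 (2.26) remained called on that scale, and FDX1 (0.42, limma adjusted p = 0.192) did not.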

How the data were processed

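Total RNA of testis from 3 calves and 3 bulls was depleted of ribosomal RNA, made into strand-specific libraries and sequenced, with 1 library per animal. According to the methods, the authors mapped the reads with TopHat2 and assembled transcripts with StringTie. They deposited tables of genes and of transcripts in FPKM, with no counts, and the methods name Cuffdiff and Ballgown for circRNA levels without saying which program made these gene values. The depth behind each value is thus unknown from the tables, and no counting interval was computed. The methods name the build UMD3.1.1, while the scaffold names follow an ARS-UCD assembly, and positions are printed as the table gives them. Symbols were those of the table, with CYP21A2 matched through its older symbol CYP21 in RefSeq and CYP11B2 and GPER1 not matched.

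The R package limma (version 3.58.1, under R 4.3.3, with the package data.table, version 1.17.8) made the fits, and Python 3.11.15 with pandas 2.3.3 and matplotlib 3.10.9 drew the figures. A gene or transcript was tested when 3 or more of the 6 libraries had an FPKM of 1 or higher (18115 genes). limma was fitted to log2(FPKM + 1) with an empirical Bayes trend, and the Benjamini-Hochberg adjustment ran over every gene, or every transcript, in the fit. Fold changes on this scale understate those of low genes. Features were called at an adjusted p under 0.05 together with a change of 1 or more, up or down, on the log2 scale. Ratios to CYP11A1 were tested by exact permutation of the labels. On simulated data with a log2 fold change of 2, the gene step recovered 193 of 200 changed genes with 2 false calls among 16775 genes. The transcript step recovered 182 of 200 with 11 false calls among 20831. The simulated spread was that of the bulls, calf 1 and calf 2, and the changed features had a mean log2(FPKM + 1) above 3. The simulation therefore does not say how many changes a fit with calf 3 recovers, or how many among low genes.

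The members, the pathway list and the marker lists were chosen with earlier results of these data known. All 9 genes are named. In each pathway group the 2 called genes with the largest change in each direction are named, with a short list of genes named whatever their values. Some of the genes counted are not reported here by name or shown in the figures. Genes that this rule picks only without calf 3, and those in which bull 3 stood out, were named after their values were seen. Alternatives covered the pseudocount, filter, scaling, variance model, replicate block and left-out libraries. A planned search of promoters for the NR5A1 motif was not run, since no sequences were used here. Same-numbered calf and bull libraries deviated together only weakly (correlations of 0.0246 to 0.0341), though more than those of different numbers. The design names no pairs, so numbers were not taken as pairs.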

Additional observations from a re-analysis of the deposited data

How the results depend on the processing

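Over all 19 alternatives run for it, HSD17B3 stayed called higher (log2 fold changes from 2.14 to 4.69). CYP19A1 stayed called higher in the 18 run for it (2.15 to 5.50). These do not include the one on the main Ensembl transcript, since that of CYP19A1 was too low to be tested. The number of the 11 entries called higher stayed between 2 and 4, against 3. STAR was called only after scaling to the FPKM sum (3.76, adjusted p = 0.0470), and its adjusted p ranged from 0.0470 to 0.221. FDX1 lost its call in 6 of 19 alternatives: after quantile normalization (0.42), without bull 3 (0.86), without calf 3 and bull 3 (0.78), without calf 3 with quantile (0.30) or median-of-ratios scaling (0.95), and in its main Ensembl transcript (0.39). Leaving out calf 3 with quantile or median-of-ratios scaling, or with bull 3, was chosen after seeing the data.

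The entries called lower numbered 1 instead of 0 with array weights and in each fit without calf 3, and 0 to 1 when single libraries were left out. Pathway genes called higher numbered 5 instead of 3 with array weights, without calf 3 and bull 3, and without calf 3 with median-of-ratios scaling, and 2 to 5 when single libraries were left out. Those called lower numbered 12 instead of 5 after quantile normalization, 1 after scaling to the FPKM sum, 10 with array weights, 12 without calf 3 and bull 3, 20 without calf 3 with quantile normalization, 11 without it with median-of-ratios scaling, and 4 to 10 when single libraries were left out. Over all genes tested, those called lower numbered 4538 instead of 1741 after quantile normalization, 1151 after scaling to the FPKM sum and 2470 with array weights. They numbered 2510 without calf 3 and bull 3. Without calf 3 they numbered 5275 with quantile normalization and 2710 with median-of-ratios scaling. Genes called higher numbered 6867 instead of 6474 with array weights. In these settings the counts of the pathway list thus moved in the same direction as those of all genes. The cause was not tested.

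The sign turned for ENSBTAG00000014335 of CYP17A1 (-0.19 with array weights, -0.21 without calf 3, -1.19 without calf 3 and bull 3, and -0.91 and -0.29 without calf 3 with quantile and median-of-ratios scaling). In the same order HSD3B1 was at -0.35, -0.40, -0.59, -0.96 and -0.47. FDXR was at 0.12 without calf 1 and 0.01 without calf 2. When single libraries were left out, this CYP17A1 entry ranged from -0.21 to 2.44, HSD3B1 from -0.40 to 1.47 and FDXR from -1.04 to 0.12. Without calf 3 and bull 3, CYP11A1 was at -0.31 and the other CYP17A1 entries at -0.0035 and -0.56, the latter at -0.17 without calf 3 with quantile normalization.

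With the replicate number as a block, 3 entries were called higher and 0 lower, and 3 and 6 pathway genes, and over all genes 6437 were higher and 1691 lower against 6474 and 1741. Every library correlated best with its own number, but only by 0.0246 to 0.0341, and calf 1 with bull 2 reached 0.0221. These values are too small to be read as pairs, and the design names none. With 3 animals a group and no counts, the depth behind low values such as CYP19A1 in calves could not be stated.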

Other observations

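The genes with the most similar profile over the 6 libraries were found by the root mean square difference of log2(FPKM + 1), each centred over the libraries. For CYP11A1 they were CBLIF (0.574), LHCGR (0.604) and FMOD (0.665). CBLIF, listed at 1.35, 2.91 and 0 FPKM in the calves and 2.03, 4.28 and 11.7 in the bulls, was also the nearest to the CYP17A1 entries ENSBTAG00000049558 (0.517) and ENSBTAG00000054516 (1.05). ENSBTAG00000049558 was followed by SSC4D (0.613) and CBLC (0.616), and ENSBTAG00000054516 by LEPROTL1 (1.18) and CBLC (1.27). For ENSBTAG00000014335 the nearest were ALDH1A1 (0.842), RAB17 (0.881) and ERP27 (0.887), of which ALDH1A1, a retinaldehyde dehydrogenase, stood at 191 and 237 FPKM in calf 1 and calf 2, 5.53 in calf 3 and 219 to 472 in the bulls.

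The nearest genes to HSD17B3 were closer, with FAM104A at 0.0755, ASF1B, a histone chaperone, at 0.0780 and AURKA, a mitotic kinase, at 0.103. AURKA was at 4.79, 4.90 and 1.15 FPKM in the calves and 34.4 to 39.7 in the bulls, and none of these had bull 3 far from the other bulls. The comparison rests on 6 libraries that share the gap between calf 3 and the others.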
